A study of Bos taurus with 18 samples.

Results

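The heat shock proteins, the DNAJ cochaperones and the cytosolic chaperonin were examined in cattle blastocysts of day 7 after insemination. Members were the probe sets, groups of short array probes that together report on 1 transcript, whose only listed gene symbol starts with HSPA, HSPB, HSPD, HSPE, HSPH, HSP90, DNAJ or CCT and a digit, or is TCP1. The rule found 80 probe sets of 53 genes among 24016 probe sets and 9155 gene symbols. The probe set of highest mean over all 18 arrays stands for each gene, and all 6 probe sets of HSPA1A are given, so that 58 probe sets were reported. Of the 53 genes, 36 had a single probe set and 17 had several. TCP1 and CCT7 are not analysed here, since no probe set lists either as its only gene, and 1 probe set shared by DNAJC2 and PMPCB was left out. The prefix also caught HSPBP1 and HSPBAP1, which bind heat shock proteins and are not small heat shock proteins themselves. Through gene numbers of the RefSeq table of ARS-UCD2.0, 52 of the genes lie on autosomes and 0 on the X chromosome, and the gene number of the chosen HSPA1A probe set had no match.

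Chaperones keep unfolded proteins from clumping and help them to fold. HSP70 proteins (HSPA) bind exposed stretches of a chain in a cycle driven by ATP, DNAJ proteins hand over the chain and trigger the ATP hydrolysis, HSP110 proteins (HSPH1, HSPA4) exchange the nucleotide, and HSP90 acts on nearly folded clients such as kinases and steroid receptors. Small heat shock proteins (HSPB) hold unfolded chains without ATP, and the ring-shaped chaperonins CCT, in the cytosol, and HSPD1 with HSPE1, in mitochondria, fold proteins inside a chamber. Some members are always made, such as HSPA8 and HSP90AB1, and others, such as HSPA1A, DNAJB1 and HSPH1, are induced by the heat shock factor HSF1. In the mouse embryo the inducible HSP70 genes are among the earliest to be transcribed, and HSPA1A is widely used as a stress readout in cultured cattle embryos.

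The study compared female and male embryos of mixed breed, made in vitro with sex-sorted semen of bull 1, bull 2 or bull 3 and frozen on day 7. The 6 groups were thus females and males of each of the 3 bulls, with 3 arrays a group and a pool of 60 blastocysts on each array, from which 50 ng of total RNA was amplified. All groups were cultured embryos, with no heat treatment named in the labels, and each bull is a single sire. The labels do not tie the 3 pools of a group to separate production runs, so p-values measure the spread between these pools, which may be technical. In pools of whole embryos, fewer cells of a type and less RNA per cell cannot be told apart. The values are log2 expression values, and a difference of 1 is a 2-fold difference. They come without detection calls, so a low value may be background.

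Array medians lay between 5.33 and 5.49, and the correlation of any 2 arrays lay between 0.9821 and 0.9975. On 4 arrays the interquartile range of each probe set's deviation from its median was above 0.25: male bull 1 replicate 2, male bull 2 replicate 1, male bull 3 replicate 3 and female bull 1 replicate 3. XIST, the RNA tied to X inactivation, had a mean of 9.21 over the female arrays against 6.63 over the male ones. The Y-linked probe sets of TSPY (6.96 in females and 6.94 in males) and ZFY (2.25 in each) did not separate the sexes, so XIST is the only 1 of 3 measured sexing markers that did. The trophectoderm marker KRT18 was at 14.04 and the pluripotency factor POU5F1 at 11.93 in both sexes, as means of 9 arrays each. Of 9 measured trophectoderm markers 1 passed the test described below toward females and 3 toward males. Of 4 measured inner cell mass markers 1 passed toward females. Over 9155 genes with 1 probe set per gene the shares were 11.5% toward females and 9.31% toward males.

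The main comparison asked which of these genes differ between female and male blastocysts. Female embryos had more RNA of HSPA1A, HSPA2, HSPB3, HSPB8, DNAJB1 and DNAJC6, by 1.55 to 2.33-fold, and of 5 other DNAJ genes by smaller amounts. Male embryos had slightly more HSPA9, DNAJC9, DNAJC11 and DNAJC17, by 1.14 to 1.26-fold. All 4 calls toward males, and those of DNAJB5, DNAJB6 and DNAJC5 toward females, were lost under at least 1 alternative fit given below. HSP90, the mitochondrial and cytosolic chaperonins and the chaperones of the endoplasmic reticulum had no member past the test. By limma's moderated test, adjusted by Benjamini-Hochberg over all 24016 probe sets with a threshold of 0.05, 11 of 53 genes (20.8%) passed toward females, that is, with the higher mean there, and 4 (7.55%) toward males. The same shares of 9155 genes with 1 probe set per gene were 11.5% and 9.31%, so 28.3% of the chaperone genes passed in either direction against 20.8%. Over all probe sets the shares were 8.12%, 7.47% and, in either direction, 15.6%. The median difference of the 53 genes was 0.02 on the log2 scale (female minus male), against -0.01 over the 9155 genes. Every female array lay above every male array in 3 of the 53 genes, and that held for 3.11% of the 9155 genes and 1.99% of all probe sets. Male arrays lay wholly above in 0 of the 53, against 1.4% and 0.937%. Each of the 15 genes past the test had the same sign in all 3 bulls, as had 16 of the 38 that did not pass. The test averages the 3 bulls, so this agreement is no separate support. The other 38 genes differed by -0.13 to 0.22, with 95% confidence intervals that together spanned a female to male ratio of 0.83 to 1.30.

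**Figure D1:**
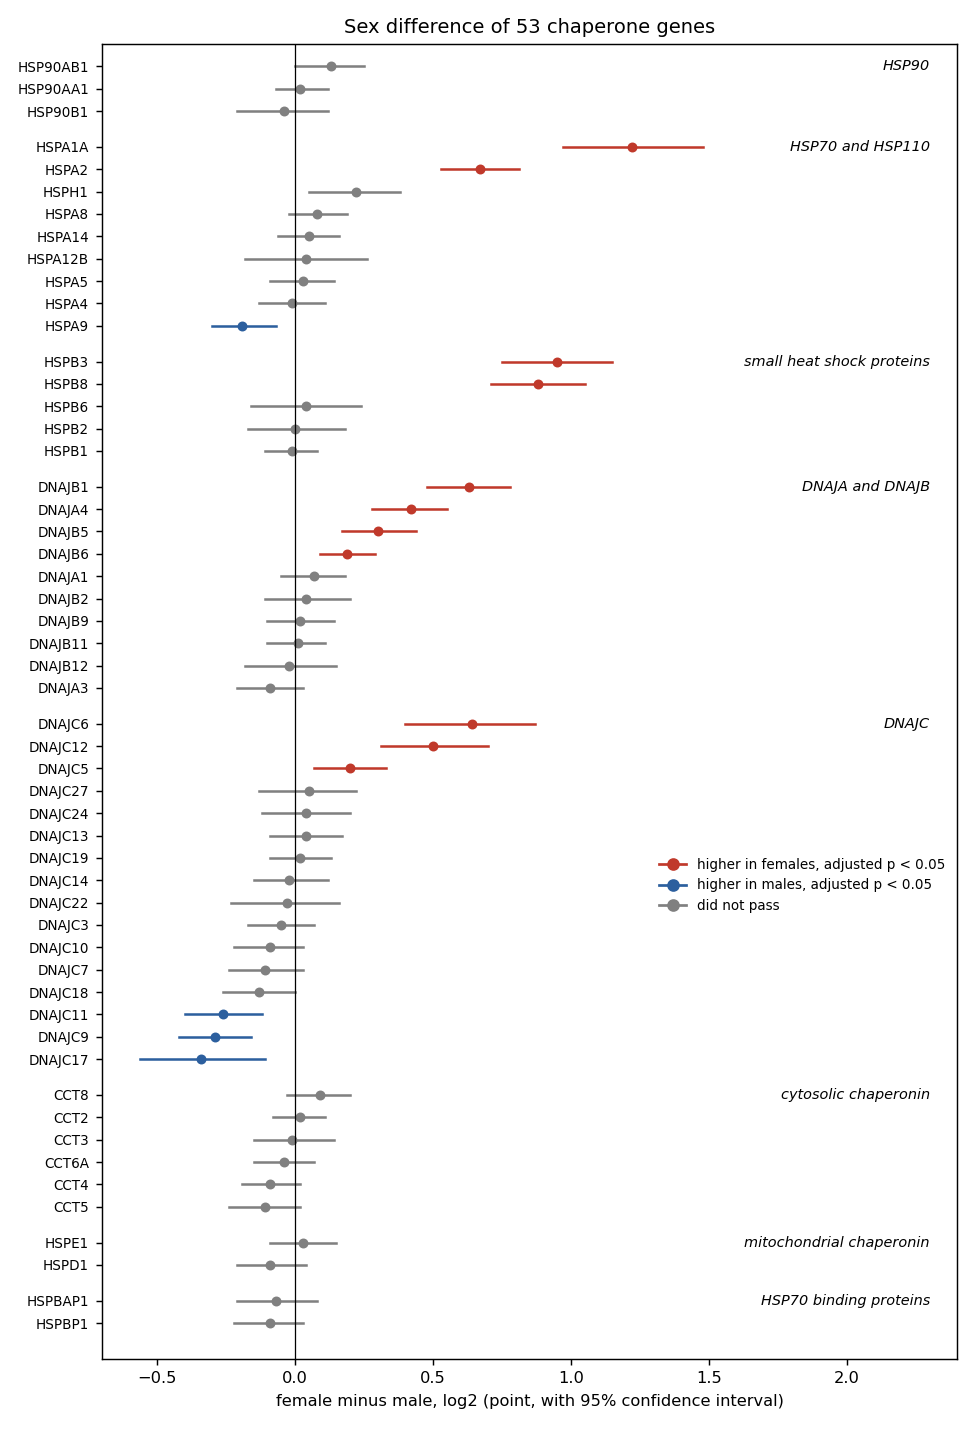
Female minus male difference on the log2 scale (horizontal axis, averaged over 3 bulls, with the 95% confidence interval of the limma fit) for each of the 53 genes, grouped by class, with colour for genes past the test. Of the coloured genes 11 lie to the right and 4 to the left, and the HSP90 and chaperonin classes have none.

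HSPA1A, the stress-inducible cytosolic HSP70, had the largest difference of the 53 genes. By its probe set of highest mean, females stood at 10.24, 10.77 and 10.48 in bull 1, at 10.21, 10.55 and 10.26 in bull 2 and at 9.55, 9.75 and 10.39 in bull 3. Males stood at 8.83, 8.88 and 9.67, at 9.15, 9.22 and 9.33, and at 8.83, 8.65 and 8.66 in the same order of bulls. Every female array lay above every male array of its bull, and across bulls a single male array, of bull 1, reached above the lowest female array, of bull 3. The female mean was 10.25 ± 0.38 and the male mean 9.03 ± 0.34 (SD, n = 9 arrays per sex, as for all means below unless stated). Females were 2.33-fold higher, with a 95% confidence interval of 1.95 to 2.78 (difference 1.22, SE 0.12, adjusted p = 1.09e-06).

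The 6 probe sets of HSPA1A, counted here in the order of their mean over all arrays, did not move together. The second had a female mean of 9.88 ± 0.51 against 8.46 ± 0.36, and the fourth had 9.48 ± 0.48 against 8.33 ± 0.35, with adjusted p = 2.97e-07 and 1.16e-06. In both, 1 male array lay above the lowest female array, as in the first probe set. The third was at 9.17 ± 0.17 and 9.05 ± 0.20 (adjusted p = 0.268), the fifth at 8.54 ± 0.21 and 8.57 ± 0.20 (adjusted p = 0.899) and the last at 4.65 ± 0.22 and 4.76 ± 0.34 (adjusted p = 0.546). In these 3 the sexes overlapped over most of their range. The platform annotation lists gene number 281825 for the first pair and 282254 for the other 4, so the split in response does not follow the gene numbers. HSPA1A has near-identical copies in mammals, and the name of the second probe set ends in _s_at, the array maker's mark for probes that match several transcripts, so which copy each probe set reports is uncertain. The mean over all 6 probe sets still differed by 0.629 on the log2 scale and passed. With array weights, the third probe set also passed (adjusted p = 0.0383).

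**Figure D2:**
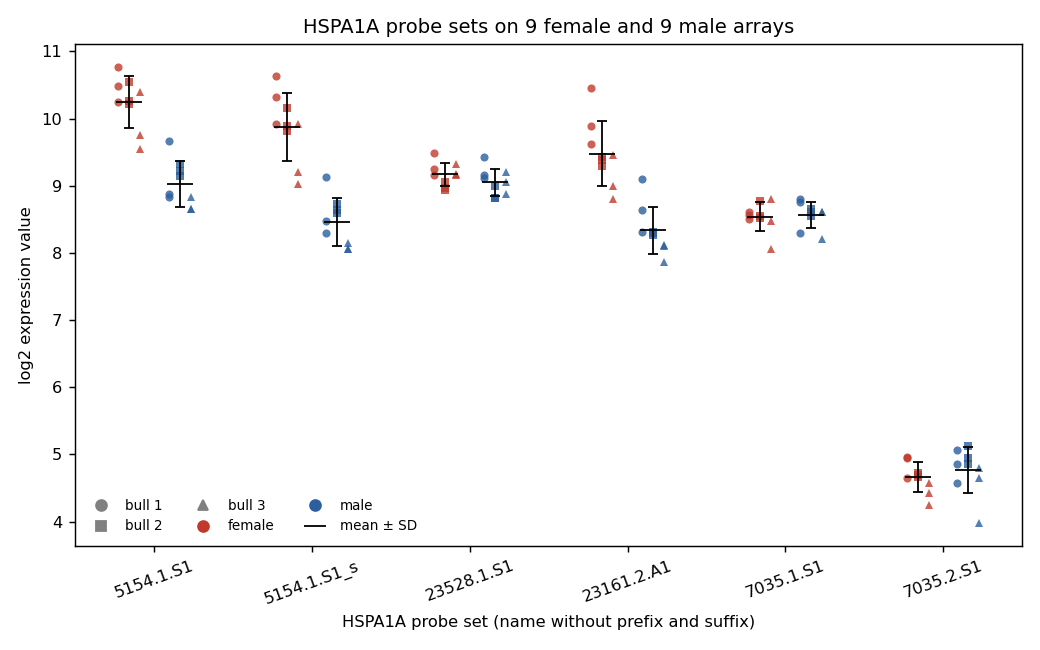
Log2 expression value (vertical axis) on each of 9 female and 9 male arrays for the 6 HSPA1A probe sets in the order of their mean, with the mean and SD per sex and the bull as the shape of the point. In 3 probe sets the female means are higher by 1.15 to 1.42, and in the other 3 the differences are 0.12, -0.03 and -0.11.

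HSPA2, an HSP70 best known from spermatogenesis, was also higher in females. Female arrays ran from 8.51 through a median of 8.74 to 9.37, and male arrays from 7.91 through 8.09 to 8.41. The sexes did not overlap. The difference of 0.67 (SE 0.07) was a 1.59-fold one, with a 95% confidence interval of 1.45 to 1.76 and adjusted p = 9.74e-07. Of 8 measured sperm and testis markers, 2 passed toward females, the sperm nuclear proteins PRM1 (by 1.73 on the log2 scale) and TNP1 (by 0.88), and 2 toward males, ODF2 and SPA17. Over the 9155 genes 11.5% passed toward females and 9.31% toward males. The mean level of the marker list ran from 5.40 to 5.66 in females and from 5.18 to 5.55 in males. Its part in the HSPA2 difference was not tested.

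Among the other HSP70 and HSP110 genes, HSPA9, the HSP70 of the mitochondrial matrix, went the other way. It was at 10.48 ± 0.11 in females and 10.66 ± 0.07 in males (difference -0.19, adjusted p = 0.0225), and 8 of 9 female arrays lay below the lowest male array. That call was lost without female bull 1 replicate 2 (adjusted p = 0.0514) and without female bull 3 replicate 3 (adjusted p = 0.0559). It was also lost without bull 2 (adjusted p = 0.229) or bull 3 (adjusted p = 0.111), with the bull as the replicate (adjusted p = 0.0706), with a block of sample number within bull (adjusted p = 0.0763) and as the mean of its probe sets (adjusted p = 0.0697). HSPA8, the constitutive partner of HSPA1A, was at 13.34 ± 0.08 and 13.26 ± 0.05 and did not pass (adjusted p = 0.329). HSPH1, the inducible HSP110, had a difference of 0.22 with a 95% confidence interval of 0.05 to 0.38, which did not pass after adjustment (adjusted p = 0.0744). HSPA4, HSPA14, HSPA12B and HSPA5, the HSP70 of the endoplasmic reticulum also known as BiP, differed by -0.01 to 0.05. In all, 2 of the 9 genes of this class passed toward females and 1 toward males, against 11.5% and 9.31% of the 9155 genes.

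Of the 5 small heat shock proteins, HSPB3 and HSPB8 passed, both toward females, against 11.5% of the 9155 genes. HSPB8, which works with the cofactor BAG3 in clearing misfolded proteins, ran from 7.56 through a median of 7.99 to 8.41 in females and from 6.57 through 7.17 to 7.62 in males. A single male array, of bull 1, lay above the lowest female array, of bull 2. The 1.84-fold difference (0.88, SE 0.08) had adjusted p = 4.82e-07. HSPB3, a muscle-associated small heat shock protein, ran from 5.48 through 5.68 to 6.20 in females and from 4.38 through 4.82 to 5.05 in males, with no overlap. Females were 1.93-fold higher (0.95, SE 0.10, adjusted p = 1.21e-06), at values in the lower part of the array's range. HSPB1, or HSP27, which coats unfolded chains and actin filaments, was at 13.43 ± 0.06 in females and 13.44 ± 0.05 in males. HSPB2 and HSPB6 differed by 0.00 and 0.04.

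The DNAJA and DNAJB cochaperones, which carry the full set of HSP40 domains or most of it, had 4 of 10 genes past the test toward females and 0 toward males, against 11.5% and 9.31% of the 9155 genes. DNAJB1, the inducible cytosolic partner of HSPA1A, ran from 9.68 through a median of 9.87 to 10.62 in females and from 9.14 through 9.30 to 9.68 in males. The lowest female and the highest male array met at 9.68 with the female barely above. The difference of 0.63 (SE 0.07) was 1.55-fold, with adjusted p = 5.67e-06, and its second probe set gave 0.41 with adjusted p = 0.000817. DNAJB1 was the only one of the 17 genes with several probe sets in which every probe set passed.

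DNAJA4 was at 7.80 ± 0.18 in females and 7.39 ± 0.16 in males, a 1.34-fold difference with adjusted p = 0.000137. DNAJB5 was at 8.05 ± 0.11 and 7.75 ± 0.13 (1.24-fold, adjusted p = 0.00218), while its second, much dimmer probe set differed by -0.06. Their sexes overlapped by 2 male arrays in DNAJA4 and 1 in DNAJB5. DNAJB6, which suppresses the aggregation of polyglutamine proteins, was at 10.90 ± 0.06 and 10.71 ± 0.08 (1.14-fold, adjusted p = 0.0104). DNAJA1, DNAJA3 of mitochondria, DNAJB2, DNAJB9, DNAJB11 and DNAJB12 differed by -0.09 to 0.07. DNAJB5 did not pass as the mean of both probe sets (adjusted p = 0.136) or without bull 2 (adjusted p = 0.0635), and DNAJB6 was lost without bull 2 (adjusted p = 0.123) or bull 3 (adjusted p = 0.115), with the bull as the replicate (adjusted p = 0.0678) and with a block of sample number within bull (adjusted p = 0.0531).

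The DNAJC genes, whose proteins share only the J domain and tie HSP70 to particular tasks, split between the sexes. Past the test were 3 of 16 in each direction, against 11.5% toward females and 9.31% toward males of the 9155 genes. DNAJC6, or auxilin, which recruits HSPA8 to strip clathrin from vesicles, ran from 6.0 through a median of 6.34 to 6.70 in females and from 5.19 through 5.66 to 6.23 in males. Only 1 male array, of bull 3, lay above the lowest female array. The 1.55-fold difference (0.64, SE 0.11) had adjusted p = 0.00052. DNAJC12, a cochaperone of the aromatic amino acid hydroxylases, was at 5.05 ± 0.21 and 4.55 ± 0.27 (1.42-fold, adjusted p = 0.000905). The DNAJC12 mean of 4.80 over all arrays lay below the array medians of 5.33 to 5.49, so its values may be background. DNAJC5, the cysteine string protein of secretory vesicles, was at 8.48 ± 0.18 and 8.28 ± 0.20 (1.15-fold, adjusted p = 0.0363), and its second, dim probe set differed by -0.16. As the mean of both probe sets DNAJC5 differed by 0.02 (adjusted p = 0.866), and its call was lost without bull 2 (adjusted p = 0.189) or bull 3 (adjusted p = 0.255).

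The 3 DNAJC genes higher in males belong to the nucleus and to mitochondria. DNAJC9, which chaperones histones H3 and H4, was at 7.92 ± 0.19 in females and 8.22 ± 0.15 in males (difference -0.29, adjusted p = 0.00322), and 6 of 9 male arrays lay above the highest female array. DNAJC11, a protein of the mitochondrial membrane contact sites, was at 8.74 ± 0.12 and 9.01 ± 0.17 (difference -0.26, adjusted p = 0.00905). DNAJC17, which is linked to splicing, was at 7.42 ± 0.17 and 7.75 ± 0.31 (difference -0.34, adjusted p = 0.0386). The weakest calls were those of DNAJC17 and DNAJC5. DNAJC17 was lost when any of 13 of the 18 arrays was left out (adjusted p = 0.0511 to 0.0859) and DNAJC5 for any of 11 (adjusted p = 0.0512 to 0.0852). DNAJC17 was also lost without bull 1 (adjusted p = 0.0529), bull 2 (adjusted p = 0.182) or bull 3 (adjusted p = 0.103). Its call was lost without moderation too (adjusted p = 0.0906), and with a block of sample number (adjusted p = 0.0526) or of number within bull (adjusted p = 0.0888). DNAJC9 was lost without bull 1 (adjusted p = 0.155), and DNAJC11 without any 1 of the bulls (adjusted p = 0.051 to 0.0641). The count of 4 genes higher in males fell to 2 when replicate 2 of the bull 1 females or replicate 3 of the bull 3 females was left out, and to 1 without any of the bulls. The count of 11 higher in females stayed within 10 to 12 for each array left out. With the mean of each sex and bull in place of its 3 pools, so that the bull is the replicate, 9 genes passed toward females and 3 toward males, and DNAJB6, DNAJC5 and HSPA9 were the ones lost.

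**Figure D3:**
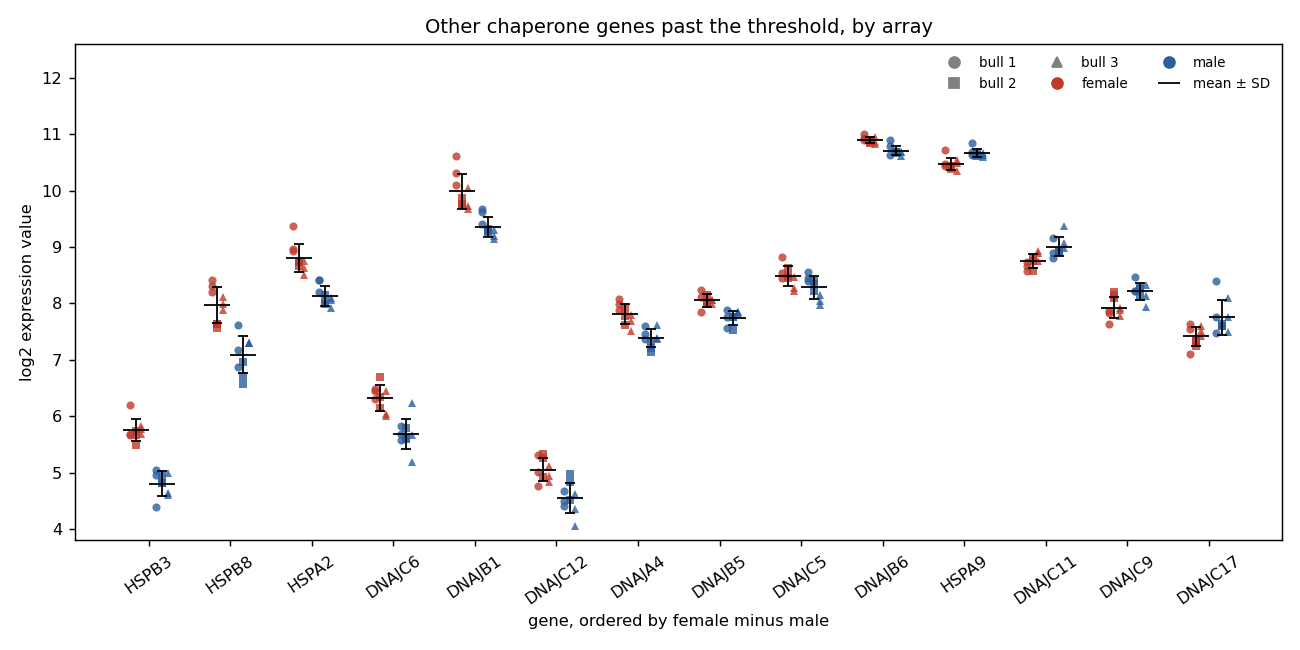
Log2 expression value (vertical axis) on each of 18 arrays for the 14 other genes past the test, ordered by the female minus male difference, with mean and SD per sex and the bull as the shape. Female points lie above male points in HSPB3, HSPA2 and DNAJB1 without overlap, and values of different genes come from different probes and are not on a common scale of abundance.

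The HSP90 genes, the chaperonins and the HSP70 binding proteins showed small differences, none past the test. All 3 HSP90 genes, the cytosolic HSP90AA1 and HSP90AB1 and the endoplasmic reticulum member HSP90B1, had female to male ratios within 0.87 to 1.19 by their 95% confidence intervals. HSP90AA1 was at 13.32 ± 0.05 in females and 13.30 ± 0.03 in males, and HSP90AB1 at 12.54 ± 0.10 and 12.42 ± 0.11 (adjusted p = 0.179). The 6 measured subunits of CCT, the chaperonin that folds actin and tubulin, differed by -0.11 to 0.09 with ratios within 0.85 to 1.15. CCT4, with the highest mean and the smallest p among them, was at 12.29 ± 0.09 and 12.38 ± 0.08 (adjusted p = 0.284). HSPD1, the mitochondrial chaperonin ring, was at 12.66 ± 0.13 and 12.74 ± 0.12, and its lid HSPE1 at 12.09 ± 0.11 and 12.06 ± 0.08, with ratios within 0.87 to 1.11. HSPBP1, a nucleotide exchange factor of HSP70, was at 8.28 ± 0.08 and 8.37 ± 0.11, and HSPBAP1, which binds HSPB1, at 5.22 ± 0.15 and 5.28 ± 0.23.

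By the place in the cell where the protein works, the differences toward females among the 53 genes were in the cytosol and on vesicles. Of 30 genes of cytosolic chaperones 9 passed toward females and 0 toward males, and of 3 genes of vesicle proteins 2 were higher in females. None of 9 genes of the endoplasmic reticulum passed, with differences of -0.13 to 0.03, and these include HSPA5, HSP90B1, DNAJB9 and DNAJC3, targets of the unfolded protein response. Outside the 53 genes, SERPINH1 of the endoplasmic reticulum passed toward females and ERO1A and SIL1 toward males, as given below. Of 6 mitochondrial members 2 were higher in males, HSPA9 and DNAJC11, and both nuclear members, DNAJC9 and DNAJC17, were higher in males. Over the 9155 genes 11.5% passed toward females and 9.31% toward males. Of the calls on vesicles, in mitochondria and in the nucleus, that of DNAJC6 alone passed under every alternative. The groups are small, the shares were not tested against each other, and the places were assigned with earlier results of these data known. By level, 19 genes had a mean of at least 10, and of these DNAJB6 was higher in females and HSPA9 in males. Of the 34 genes under 10, 10 were higher in females and 3 in males. Over all probe sets 19.5% of those at or above 10 passed in either direction (9.88% toward females), and of those below 15.3% passed (8.0% toward females and 7.32% toward males).

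Within single bulls, the same direction was seen for the strongest genes. HSPA1A, HSPA2, HSPB3, HSPB8 and DNAJB1 were higher in females within each of the 3 bulls by adjusted p. In bull 1, 8 of 53 genes passed (15.1%, against 4.20% of all probe sets), 7 of them toward females (2.74% of all probe sets) and DNAJC9 toward males (1.46%). In bull 2, 7 genes passed (13.2%, against 3.13%), all toward females (2.57% toward females and 0.558% toward males over all probe sets). In bull 3, 6 passed (11.3%, against 4.18%), again all toward females (2.65% and 1.53% over all probe sets). These shares over all probe sets are not per gene, and the share of the 9155 genes within single bulls was not counted. In the test over all bulls, 20.8% of the 9155 genes passed in either direction, against 15.6% of all probe sets. Of the 80 probe sets of the 53 genes, 11 passed in bull 1 (13.8%), 9 in bull 2 (11.2%) and 8 in bull 3. HSPA1A differed by 1.37, 1.11 and 1.19 in bulls 1, 2 and 3, and HSPB8 by 1.09, 0.86 and 0.70. DNAJC6 and DNAJA4 also passed in bulls 1 and 2, with 0.72 and 0.72 and with 0.50 and 0.54, and had 0.46 and 0.21 in bull 3. DNAJC12 passed in bull 3 alone, with 0.62 against 0.51 and 0.39 in bulls 1 and 2. Leaving out 1 array moved the count in bull 1 to 5 without female replicate 3. In bull 2 it moved the count to 4 without female replicate 2 or male replicate 1 and to 3 without female replicate 3.

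Whether the female minus male difference changed with the bull was asked by the interaction test of the same limma fit. It called 0 of 53 genes and 0 of 24016 probe sets (0.00%). At an unadjusted p under 0.05 there were 2 of the 53 genes, DNAJC9 and DNAJC24, against 2.73% of all probe sets. DNAJC9 differed by -0.52, -0.07 and -0.28 in bulls 1, 2 and 3 (unadjusted p = 0.0324). The fit without moderation also called 0.

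**Figure D4:**
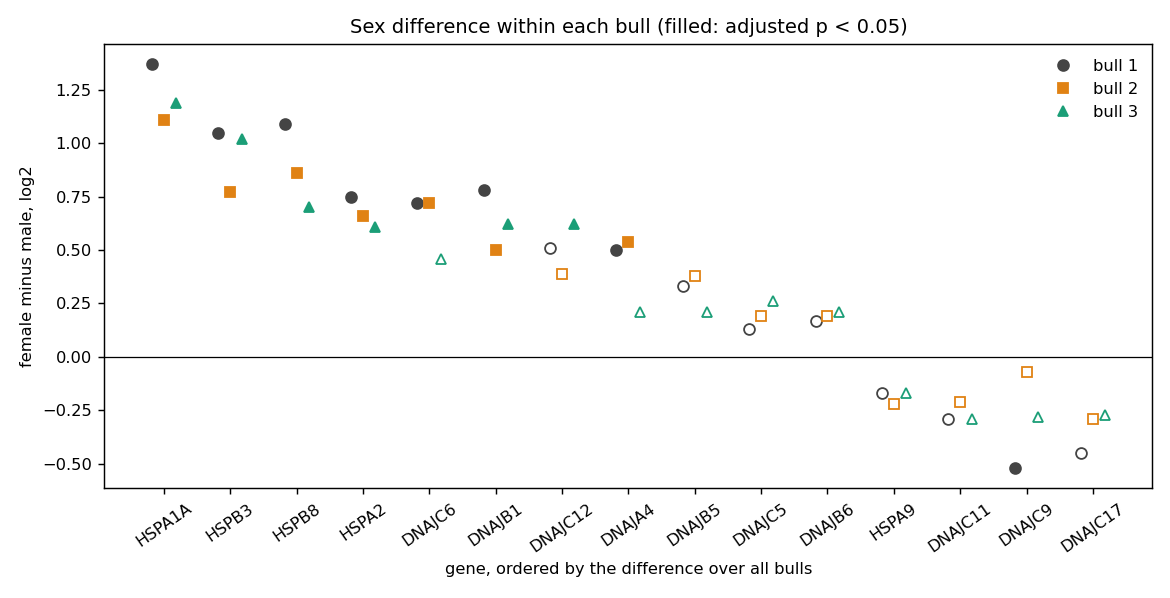
Female minus male difference on the log2 scale (vertical axis) in each of 3 bulls, with 3 arrays per sex and bull, for the 15 genes past the test over all bulls, filled where the bull's own contrast passed. All points of a gene lie on the same side of 0, and HSPA1A, HSPB3, HSPB8, HSPA2 and DNAJB1 are filled in every bull.

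Differences between the bulls were fewer, and 4 of the 5 genes past that test also differed by sex. Embryos of bull 2 had less HSPB8 (difference -0.58, adjusted p = 0.00642), DNAJB1 (-0.41, adjusted p = 0.024) and HSPA2 (-0.33, adjusted p = 0.0498) than those of bull 1, 3 of 53 genes, all lower in bull 2, against 1.52% of all probe sets (1.04% lower and 0.475% higher). Bull 3 had less DNAJB1 (-0.44, adjusted p = 0.012), HSPA2 (-0.39, adjusted p = 0.0165) and DNAJC5 (-0.35, adjusted p = 0.0188) than bull 1, again 3 genes, all lower in bull 3, against 3.53% (2.35% lower and 1.18% higher). Bull 3 had more HSPB8 (0.46, adjusted p = 0.0162) and HSPBAP1 (0.32, adjusted p = 0.0398) than bull 2, 2 genes against 3.74% (1.69% higher and 2.04% lower). HSPB8 had means of 7.76 ± 0.64, 7.18 ± 0.49 and 7.64 ± 0.39 over both sexes in bulls 1, 2 and 3 (SD, n = 6 arrays each), and DNAJB1 had 9.96 ± 0.47, 9.54 ± 0.28 and 9.52 ± 0.36. These SDs include the sex difference. Here too the shares over all probe sets are not per gene. Of the 80 probe sets of the 53 genes, 5.0% passed for bull 2 against 1, 15.0% for bull 3 against 1 and 8.75% for bull 3 against 2. The 3 contrasts share their bulls, and a bull cannot be told apart from a production or array batch.

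An index of RNA length differed between the bulls. It is the mean signal of the 5′ probes minus that of the 3′ probes of 3 control transcripts, and it falls when RNA or its amplified copy is shorter. In bull 3 it ran from -1.27 through a median of -0.593 to -0.359, in bull 1 from -0.441 through -0.148 to 0.447, and in bull 2 from -0.381 through -0.254 to -0.129. Between the sexes it overlapped, with medians of -0.359 in females and -0.333 in males. Over all 80 probe sets, 12 differed between bulls 3 and 1, against 3.53% of all probe sets. Of these 11 were lower in bull 3, and most were second or dimmer probe sets of a gene. The 12 became 5 without female bull 3 replicate 1, 7 without female bull 3 replicate 2, 2 without bull 2, 4 without the 4 arrays of wide spread and 6 without moderation. The second probe set of HSP90AA1 was at 12.08 ± 0.30 in bull 3, 12.62 ± 0.01 in bull 2 and 12.63 ± 0.10 in bull 1 (bull 3 against bull 1 adjusted p = 0.00925), while the first did not pass. The second probe sets of HSPA5, HSPA14 and HSPH1 were lower in bull 3 than in bull 1, with differences of -0.77, -0.81 and -0.81. With the index as a covariate, 0 of 53 genes and 0 of 80 probe sets passed between bulls 3 and 1 or 3 and 2. The share over all probe sets was not counted under any of these alternative settings. These falls in count are therefore not read as particular to the chaperone genes. The differences themselves went from 0.46 to 0.40 in HSPB8 and from 0.32 to 0.28 in HSPBAP1 (bull 3 against 2), and from -0.44 to -0.33 in DNAJB1, -0.35 to -0.23 in DNAJC5 and -0.39 to -0.18 in HSPA2 (bull 3 against 1). The index itself differs by bull, so its part and the bull's cannot be told apart. The sex counts were the same with the index as a covariate, at 11 and 4.

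**Figure D5:**
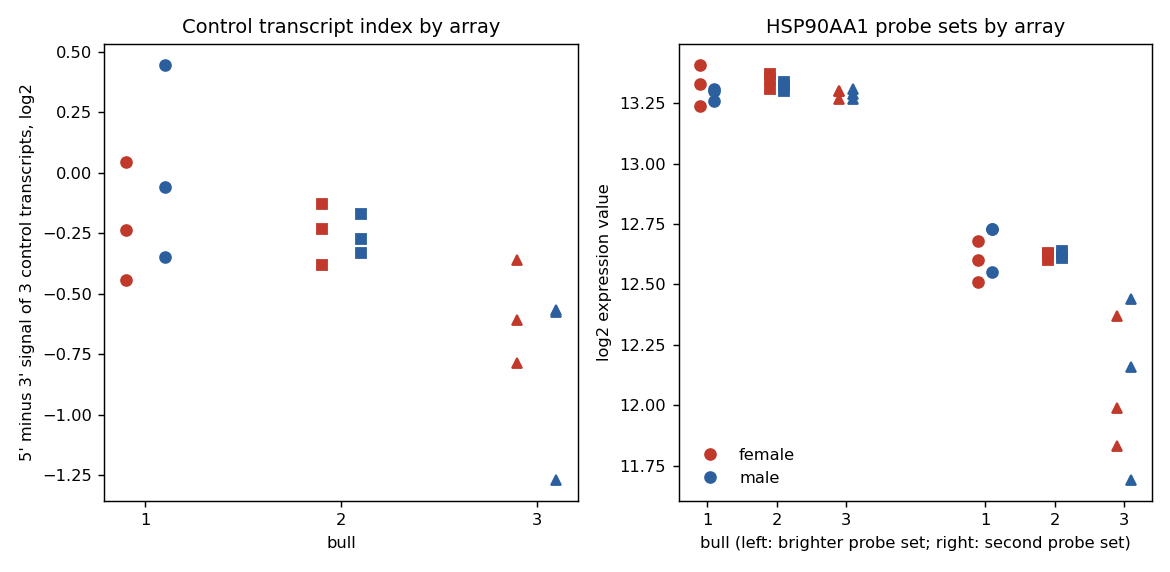
On the left, the 5′ minus 3′ signal of 3 control transcripts (log2, vertical axis) on each array by bull, and on the right, the log2 values of the 2 HSP90AA1 probe sets by bull, with colour for sex and 6 arrays per bull. Bull 3 has the lowest index values, and the second HSP90AA1 probe set is lower in bull 3, at 12.08 ± 0.30 against 12.63 ± 0.10 in bull 1.

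Of the 8 bull calls, 2 passed with each of the 18 arrays left out in turn, HSPB8 in bull 2 against bull 1 and DNAJB1 in bull 3 against bull 1, and 6 did not. Without the 4 arrays of wide spread, 0, 1 and 0 of 53 genes passed for bull 2 against 1, 3 against 1 and 3 against 2. HSPA2 in bull 2 against bull 1 was lost when any of 14 arrays was left out (adjusted p = 0.054 to 0.121), DNAJB1 there for any of 5 (adjusted p = 0.0546 to 0.0664), and HSPBAP1 in bull 3 against bull 2 for any of 10 (adjusted p = 0.0509 to 0.12). In bull 3 against bull 1, DNAJC5 was lost without female bull 3 replicate 1 or 2 (adjusted p = 0.0638 and 0.0525) and HSPA2 without female bull 3 replicate 1 (adjusted p = 0.0554). HSPB8 in bull 3 against bull 2 was lost without female bull 3 replicate 2 (adjusted p = 0.0524).

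Genes that regulate or assist these chaperones showed changes in both directions. HSF1, the main activator of the heat shock genes, was at 8.49 ± 0.09 in females and 8.62 ± 0.11 in males and did not pass (adjusted p = 0.111). It passed toward males with array weights (adjusted p = 0.0469), among the brighter 50% of probe sets (adjusted p = 0.0497) and after median centring (adjusted p = 0.0395). HSF2 was at 8.88 ± 0.08 and 8.70 ± 0.11 (difference 0.18, adjusted p = 0.0498) and was lost when any of 14 arrays was left out (adjusted p = 0.0523 to 0.112). Of 4 measured heat shock factors and regulators, HSF2 alone passed, with a list median of 0.03. Among 18 HSP70 cofactors, 1 passed toward females and 4 toward males, against 11.5% and 9.31% of the 9155 genes, with a median of -0.08. The 1 was BAG3, the HSP70 cofactor that pairs with HSPB8, at 9.64 ± 0.26 and 9.22 ± 0.22 (1.34-fold, adjusted p = 0.000643). BAG1 and the mitochondrial exchange factor GRPEL2, which serves HSPA9, were higher in males by 1.21 and 1.30-fold (adjusted p = 0.00122 and 0.000762), with no overlap of the sexes, and BAG2 and SIL1 by 1.24 and 1.18-fold. As the mean of its probe sets GRPEL2 differed by -0.22 instead of -0.38 and still passed.

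Among 16 HSP90 cochaperones 3 passed toward females and 1 toward males, with a median of 0.02. For this and the following lists, the shares over the 9155 genes were 11.5% toward females and 9.31% toward males. CDC37L1 and NUDC were higher in females by 0.29 and 0.23 on the log2 scale and the immunophilin FKBP4 in males (difference -0.26), and AHSA1, the activator of HSP90's ATPase, was higher in females by 0.17. NUDC was lost when any of 6 arrays was left out (adjusted p = 0.0567 to 0.064). Among 14 genes of prefoldin, which hands chains to CCT, and of tubulin folding, 2 passed toward females and 1 toward males, with a median of -0.02. The prefoldin subunit VBP1, which the table places on the X chromosome, was at 11.12 ± 0.08 in females and 10.56 ± 0.11 in males (1.48-fold, adjusted p = 2.62e-07), with no overlap. PDCL was higher in females by 0.18, a call lost for any of 5 arrays (adjusted p = 0.0519 to 0.06), and the tubulin cofactor TBCE was higher in males by 1.30-fold. Of 18 further genes of folding and stress in the endoplasmic reticulum 1 passed, the oxidase ERO1A, which was higher in males by 1.31-fold (adjusted p = 0.00231), and the list median was -0.04. That list leaves out SERPINH1, which passed toward females, and SIL1, which passed toward males, both counted in other lists. Of 8 mitochondrial proteases, with a median of -0.01, PMPCA, a subunit of the presequence protease, was higher in males by 1.27-fold, and AFG3L2 was higher in females by 0.16, a call lost for any of 11 arrays (adjusted p = 0.0521 to 0.0722). As means of their probe sets ERO1A differed by -0.23 instead of -0.39 and still passed, and AFG3L2 differed by 0.06 (adjusted p = 0.428). Without bull 3, ERO1A (adjusted p = 0.0707) and FKBP4 (adjusted p = 0.0649) were lost.

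Of 12 other stress-responsive genes 5 passed toward females and 0 toward males, against 11.5% and 9.31% of the 9155 genes, with a median of 0.15. SERPINH1, or HSP47, the collagen chaperone of the endoplasmic reticulum and a heat shock gene, was at 7.98 ± 0.27 in females and 7.05 ± 0.27 in males (1.91-fold, adjusted p = 1.47e-05). The immediate early genes EGR1, at 8.62 ± 0.19 and 7.86 ± 0.12 (1.69-fold, adjusted p = 1.2e-06), JUN (1.21-fold) and FOS (1.22-fold) were higher in females, as was CRYAB, a small heat shock protein outside the HSPB symbols (1.53-fold, adjusted p = 0.0136). The sexes did not overlap in SERPINH1, EGR1 and FOS. As the mean of its probe sets EGR1 differed by 0.36 instead of 0.76 and still passed. BAG2, SIL1, AHSA1, FOS and CRYAB were named after their values were seen. Beside these, 4 of 12 cumulus and granulosa markers passed toward females and 1 toward males, the mean level of that list running from 5.84 to 6.46 in females and from 5.63 to 6.41 in males. Of 6 blood markers 2 passed toward females and 1 toward males, with list levels of 4.76 to 5.29 and 4.73 to 5.14. Their part in the chaperone differences was not tested.

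The last comparison asked whether pools with more HSPA1A also had more of other heat shock genes. Within each sex, over 9 arrays, HSPA1A, by its first probe set, was set against DNAJB1, HSPH1, HSPB1, HSPA8, HSP90AA1, HSPD1 and HSPE1, 14 relations in all. None passed after Benjamini-Hochberg adjustment by exact permutation. The highest r was that of HSPA8 in females, with Pearson's r = 0.79 (exact permutation p = 0.00828, adjusted p = 0.116) and Spearman's rho = 0.73 (exact permutation p = 0.0311, adjusted p = 0.145). Its r was 0.80 without the 2 arrays farthest from the median of HSPA1A and 0.74 after centring each bull, and the same pair gave r = 0.43 in males (exact permutation p = 0.254). HSPH1 had r = 0.72 in females and 0.74 in males (exact permutation p = 0.0285 and 0.0238, adjusted p = 0.133 for each), with rho = 0.60 and 0.55 (exact permutation p = 0.0968 and 0.133). Without the 2 farthest arrays the r values of HSPH1 fell to 0.26 and 0.31, and centring each bull gave 0.28 and 0.80. Leaving out the extremes of HSPA1A narrows its range, which can itself lower r. The fall therefore cannot tell whether the relations rest on those arrays. DNAJB1 had r = 0.65 in females (exact permutation p = 0.056) and 0.51 in males (exact permutation p = 0.167), and in females the highest rho, 0.80 (exact permutation p = 0.0138, adjusted p = 0.145). HSPB1 had r = 0.55 and rho = 0.75 in females (exact permutation p = 0.106 and 0.0255) and r = -0.52 and rho = -0.60 in males (exact permutation p = 0.152 and 0.0968). Without the 2 farthest arrays its r was 0.22 in females and -0.87 in males, and centring each bull gave 0.59 and -0.05. The arrays share bulls and are few, so these values describe the 9 pools of each sex.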

How the data were processed

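Per the labels' protocols, RNA of 18 pools was amplified and measured on Affymetrix arrays of the cow. Values were deposited on the log2 scale, as read from their range of 1.89 to 14.15. Per the submitters' processing notes, RMA and Partek 6.4 were used, without a stated role. RMA pulls array distributions together, so a shift of all transcripts would not be seen. Any other step, and the scan dates, were not given in the sources used here. Arrays have no read depth, and precision is limited by their number.

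After 112 control probe sets were left out, 24016 of 24128 were tested. The platform annotation lists 1 gene for 13292, several for 86 and none for 10638. Of the 80 probe sets of the chaperone genes, 78 matched the RefSeq table of ARS-UCD2.0 by gene number and 2 did not.

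The 6 group means were estimated in limma 3.58.1 (R 4.3.3) by lmFit, and eBayes moderated the spread, which had 12 residual degrees of freedom. Contrasts were sex over all bulls and within each bull, the interaction, and each pair of bulls. Adjustment was by Benjamini-Hochberg over 24016 probe sets per contrast, with a threshold of 0.05. Correlations were tested by exact permutation, two-sided. The steps were tested on simulated data. Samples with the same number did not deviate together more than others, which does not settle whether they shared a production run.

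The members, the lists and the assignment of genes to classes and places were chosen with earlier results of these data known, so the lists give no independent evidence. Named were all HSPA1A probe sets, every gene past the sex test, the highest and the smallest-p gene of each class, up to 4 genes per direction and pair of bulls, genes whose probe sets disagree, HSF1, HSF2 and up to 3 genes past the test per list. Other members stand as parts of a class or list. Alternatives were quantile normalization, median centring, the brighter 50% of probe sets, an intensity trend, array weights, no moderation, an additive model, a block for the sample number, leaving out each array or bull or the arrays of wide spread, bulls in place of arrays as replicates, each bull fitted on its own arrays, the 5′ minus 3′ index as a covariate, the averaged probe sets of a gene and 1 probe set per gene in the adjustment. No sequences of probes, promoters or proteins were used here. Figures were drawn with matplotlib 3.10.9.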

Additional observations from a re-analysis of the deposited data

Results flagged for a closer look

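In 14 of 116 groups of 9 arrays of a sex, the highest or lowest array stood apart by Dixon's criterion, where chance gives about 1 in 20. They concern 13 genes, and 10 of the 14 values come from the 4 arrays of wide spread.

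Female bull 1 replicate 3 held 5 of them. It was the highest female array for HSPB3 at 6.20 (the others lay between 5.48 and 5.82), HSPD1 at 12.94 (12.49 to 12.71), HSPE1 at 12.37 (11.98 to 12.13), CCT3 at 10.99 (10.64 to 10.81) and HSPA12B at 4.92 (3.84 to 4.37). Male bull 3 replicate 3 held 3, the highest male value of DNAJC7 at 10.17 (9.48 to 9.76), the lowest of DNAJC10 at 9.58 (9.93 to 10.14) and the lowest of the HSPA1A probe set of lowest mean at 3.98 (4.57 to 5.13). Male bull 1 replicate 2 held the highest male value of HSPA9 at 10.85 (10.60 to 10.68) and the lowest of CCT8 at 11.85 (the others at up to 12.12). Female bull 1 replicate 2 held the lowest female values of DNAJC24 at 6.89 (7.27 to 7.51) and DNAJC19 at 10.23 (10.33 to 10.42). Female bull 3 replicate 1 was lowest for the fifth HSPA1A probe set at 8.05 (8.48 to 8.80), and female bull 1 replicate 1 for DNAJC14 at 7.52 (7.74 to 7.96). Among the genes past the sex test, HSPB3 and HSPA9 were concerned, and both passed without those arrays.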

How the results depend on the processing

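Of 42 named results past the threshold, 21 passed under every alternative run and 21 were lost under at least 1, and none changed sign while called. The 11 genes higher in females became 10 to 12 with 1 array left out and 8 to 13 under the others. The 4 higher in males became 2 to 4 with 1 array left out and 1 without bull 1, bull 2 or bull 3. Counts of genes called within bulls 1, 2 and 3 ran from 5 to 8, 3 to 8 and 4 to 7 with 1 array left out, and the interaction count stayed at 0. For bull 2 against bull 1, 3 genes became 1 to 3 with 1 array left out, 1 without moderation and 0 without the arrays of wide spread. For bull 3 against bull 1, 3 became 1 to 4 with 1 array left out, 0 with the index as a covariate or without bull 2, 1 without the arrays of wide spread, 5 with array weights, an intensity trend or the brighter 50% of probe sets, and 7 with averaged probe sets of a gene. For bull 3 against bull 2, 2 became 1 to 4 with 1 array left out, 0 with the index or without the arrays of wide spread, 6 with averaged probe sets and 8 with array weights. The cause of these shifts was not tested, and the shares over all probe sets were not counted under the alternatives.

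With the sample number as a replicate block, 10 genes passed toward females and 3 toward males. With the number within bull as a replicate block, 9 passed toward females and 2 toward males. Deviations of same-numbered female and male arrays of a bull correlated at -0.181 to 0.103, and those of differently numbered ones at -0.154 to 0.208. With 3 arrays a group, these values cannot tell whether same-numbered samples shared a production run. Low values cannot be told from background, and the gene copies behind the HSPA1A probe sets are uncertain.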

Other observations

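Probe sets of a gene did not always give the same call. Among the 17 genes with several probe sets, 12 had none past the sex test, DNAJB1 had both past it, and HSPA1A, DNAJB5, DNAJC5 and HSPA9 had some. In DNAJB5, DNAJC5 and HSPA9 the probe set that did not pass was the dim one, with means over all arrays of 3.23, 3.33 and 4.89. In HSPA1A that was so for the last of the 6, with a mean of 4.71, while the third and the fifth, at 9.11 and 8.55, lay close to the 8.91 of the fourth, which passed.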
